A study of Arabidopsis thaliana with 54 samples.

Results

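The step from 2 h to 4 h of cold was followed in whole rosettes of Arabidopsis thaliana, accession Col-0, by RNA sequencing. It was read from 18 of the 54 libraries in the series, all 9 taken at 4 h against all 9 taken at 2 h, assigned to their groups by the labels. Each time holds 3 conditions with 3 libraries each, 1 from each of 3 independent experiments (Exp1 to Exp3), and every library pools 5 samples. C28P plants were moved into their first cold at an age of 28 days. C35P plants, the control for development, were 35 days old at theirs. For C28PLT a priming cold of 3 days, begun at 28 days, was followed by a warm lag of 7 days and by the second cold sampled here, the triggering. All 18 libraries come from plants held at a constant 4 °C under 90 µmol of light with a 16 h day, after growth at a day temperature of 20 °C under 200 µmol. Both times therefore lie in the cold and in the dimmer light. The time of day moved on together with the time in the cold, and no warm library was compared at either time, so the passage of the day and the longer cold cannot be told apart.

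In Arabidopsis, cold quickly switches on the CBF (DREB1) factors. These bind a short DNA element, the DRE/CRT, before the COR genes, whose proteins protect membranes and enzymes from freezing. The circadian clock gates this path: its morning MYB factors act through an evening element, which stands before evening-phased clock genes and before several cold genes. Genes that respond fast to touch, calcium and handling are often induced only for a short time.

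The 18 libraries held 23781905 to 34452480 counts (median 28.77 M), and 19954 genes were tested, 54.5% of the table. Levels are given as CPM, read counts scaled to the TMM-adjusted library size. Changes are log2 values of 4 h minus 2 h, with the standard error (SE) on that scale, from edgeR's quasi-likelihood test with condition as covariate. A gene is said to rise or fall where its Benjamini-Hochberg adjusted p over all genes tested was under 0.05. The C28P library of Exp2 at 2 h stood apart, with the lowest total and 20466 genes detected against at least 21988 in each other library. The libraries differed in how the signal of genes related to transcript length. Spearman's rho across genes ranged from -0.483 (C28PLT Exp3 at 4 h) to 0.623 (C28P Exp3 at 2 h). For C28P Exp3 it was 0.623 at 2 h and -0.431 at 4 h, and for C28PLT Exp2 it was -0.324 and 0.464. The C28PLT libraries of Exp3 had the highest CBF1, CBF2 and CBF3 levels of their time. The part of these differences in single results was not tested beyond the values given beside them.

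Between 2 h and 4 h, 1939 genes changed, or 9.72% of those tested. Of these, 1032 (5.17%) rose and 907 (4.55%) fell, while the median log2 change of all genes was -0.03. A change of at least 2-fold was found in 453 risen and 338 fallen genes, and one of at least 4-fold in 95 risen and 28 fallen genes. The change had the same sign in all 9 pairs of condition and experiment for 1410 of the 1939 genes. In 316 genes (1.58%) every library at 4 h stood above every library at 2 h, and in 106 (0.531%) every one stood below. With each condition and experiment as a replicate block, 2949 genes were called (14.8%), 1450 risen and 1499 fallen. Of these, 1917 were among the 1939, all with the same sign. List counts given below for this block belong beside these larger numbers, not beside the 5.17% and 4.55%.

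Among genes with a mean of at least 5 CPM at either time and the same sign in all 9 pairs, AT4G33980 and COR27 had the largest rises by log2 change. AT4G33980, annotated as an uncharacterized protein, stood at 1.17 to 6.70 CPM at 2 h (median 3.98) and at 79.6 to 125 CPM at 4 h (median 96.7). No library at 4 h overlapped one at 2 h, and the gene rose 23.2-fold (log2 4.54, SE 0.272, adjusted p = 1.48e-09). COR27, a cold-regulated gene that also acts on the clock, stood at 6.02 to 19.4 CPM at 2 h (median 11.6) and at 151 to 245 CPM at 4 h (median 211), again without overlap. It rose 17.3-fold (log2 4.11, SE 0.227, adjusted p = 5.82e-10). The same sign in all 9 pairs was a condition of this selection, so it adds nothing for the genes picked by it.

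Other large rises were those of genes with varied roles. DGAT1, which makes the storage lipid triacylglycerol, stood at 1.94 to 4.19 CPM at 2 h (median 2.92) and at 24.9 to 41.1 CPM at 4 h (median 37.0). It rose 11.7-fold (log2 3.55, SE 0.178, adjusted p = 2.58e-10). ACA8, a calcium pump, rose 11.5-fold (log2 3.52, SE 0.231, adjusted p = 3.83e-09) from a median of 6.66 to one of 71.4 CPM. Both genes separated the times completely in all 18 libraries. AT4G33070, of the pyruvate decarboxylase family, rose 12.4-fold (log2 3.63, SE 0.292). AT1G10770, of the invertase and pectin methylesterase inhibitor family, rose 12.3-fold (log2 3.63, SE 0.350), and AT1G17665, annotated as a CA-responsive protein, rose 14.8-fold (log2 3.88, SE 0.206). Of genes annotated with a DnaJ domain, found in partners of chaperones, AT5G23240 rose 8.56-fold (log2 3.10, SE 0.225) and AT1G56300 rose 5.90-fold (log2 2.56, SE 0.139). The uncharacterized AT4G33467 rose 8.20-fold (log2 3.04, SE 0.453), and the glycosyl hydrolase gene AT1G32860 rose 8.10-fold (log2 3.02, SE 0.183).

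**Figure D1:**
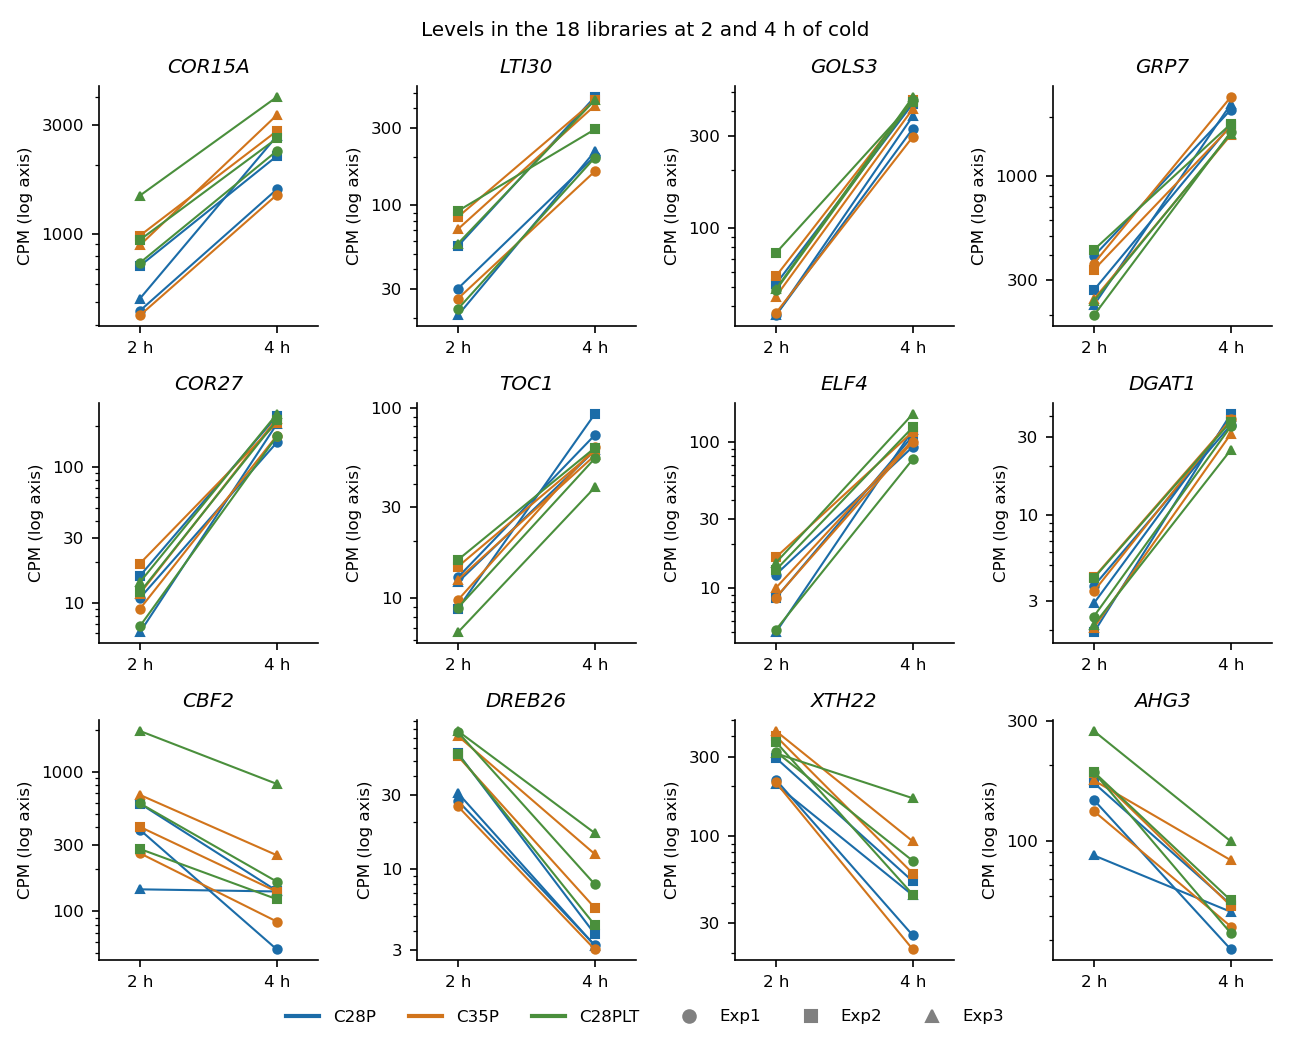
Levels of 12 genes in each of the 18 libraries, in CPM on a log axis, at 2 h and 4 h of cold. Each line joins the libraries of one condition (colour) and experiment (symbol). COR27, DGAT1 and ELF4 rise and XTH22 falls without overlap between the times. CBF2 is lower at 4 h in all 9 pairs.

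Of the 6 CBF/DREB1 genes, 1 fell and 0 rose, beside 4.55% fallen over all genes. CBF2 stood at 144 to 1959 CPM at 2 h (median 403) and at 53.2 to 817 CPM at 4 h (median 139), lower at 4 h in 9 of 9 pairs. The groups overlapped: the C28PLT libraries of Exp3 were the highest of both times (1959 and 817 CPM), and C28P Exp3 held nearly the same level at both (144 and 139 CPM). CBF2 fell 2.93-fold (log2 -1.55, SE 0.430, adjusted p = 0.0252). The call was lost without the 2 h library of C28PLT Exp3 (adjusted p = 0.0943), of C35P Exp3 (adjusted p = 0.0552) or of C28P Exp2 (adjusted p = 0.0555).

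The other 5 of the 6 were not called. CBF1 had medians of 44.4 and 19.4 CPM (log2 -1.20, SE 0.581, adjusted p = 0.256) and was higher at 4 h in 2 of 9 pairs. CBF3 had medians of 323 and 232 CPM (log2 -0.34, SE 0.304, adjusted p = 0.645) and was higher in 1 of 9. CBF1 to CBF3 are near-identical neighbours, so which copy their reads came from is uncertain. CBF4, DDF1 and DDF2, relatives known from drought and salt responses, had log2 changes of -1.78 (SE 0.938), -1.25 (SE 0.912) and -0.98 (SE 0.716). The median log2 change of the 6 was -1.22, against -0.03 over all genes. With the replicate block of condition and experiment 4 of the 6 fell, namely CBF2 (adjusted p = 0.000127), CBF4 (adjusted p = 0.000341), DDF1 (adjusted p = 0.00151) and DDF2 (adjusted p = 0.00789). Without the 4 h library of C28PLT Exp3, where DDF1 stood at 59.7 CPM, 3 of the 6 fell in the unblocked test. At 0 h the medians of CBF2 and CBF3 were 11.8 and 3.70 CPM.

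Of 15 factors that act before the CBF genes, 0 rose and 1 fell, beside 4.55% fallen over all genes, and their median log2 change was -0.06. The fallen one was PIF4, a growth-promoting bHLH factor known to repress CBF genes (log2 -0.40, SE 0.117, adjusted p = 0.0359). PIF4 lost its call when 1 library was left out for 13 of the 18 (adjusted p up to 0.0988), the exceptions being C28P Exp1, C28P Exp3, C28PLT Exp3 and C35P Exp1 at 2 h, and C28P Exp2 at 4 h.

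Of 20 other early cold-induced factors, 3 rose and 4 fell, beside 5.17% and 4.55% over all genes. Their median log2 change was -0.23. The zinc-finger gene ZAT6 rose 2.57-fold (log2 1.36, SE 0.332, adjusted p = 0.0107) from a median of 65.5 to one of 136 CPM, with overlap between the times. ERF5, an ethylene-response factor, rose 2.67-fold (log2 1.42, SE 0.282, adjusted p = 0.00215). DEAR1, a DREB-type repressor, rose 3.38-fold (log2 1.76, SE 0.499, adjusted p = 0.0295). DEAR1 lost its call without any 1 of 5 libraries, which were C28P Exp1, C28PLT Exp1 and C28PLT Exp2 at 2 h and C28P Exp2 and C28PLT Exp3 at 4 h (adjusted p up to 0.0774). Among those that fell, MYB44, a stress-induced MYB factor, fell 2.19-fold (log2 -1.13, SE 0.217, adjusted p = 0.00151). ERF6, a close relative of ERF5, fell 2.72-fold (log2 -1.44, SE 0.372, adjusted p = 0.0160), and its call was lost without the C28P library of Exp2 at 2 h (adjusted p = 0.0516). CRF2 (log2 -0.52, SE 0.158, adjusted p = 0.0434) and ERF104 (log2 -0.83, SE 0.212, adjusted p = 0.0153) were the other fallen members. ERF104 was not called in the fit of all 54 libraries (adjusted p = 0.154), and leaving out an experiment gave it an adjusted p up to 0.318. The call of CRF2 was lost for 13 of the 18 libraries left out in turn (adjusted p up to 0.120), the exceptions being C28P Exp2 and C28PLT Exp3 at 2 h, and C28P Exp3, C28PLT Exp1 and C35P Exp1 at 4 h. With the replicate block of condition and experiment 7 of the 20 fell, beside 1499 of 19954 genes in that fit. ERF5 and ERF6 thus had opposite signs, ERF5 higher at 4 h in 9 of 9 pairs and ERF6 in 1 of 9.

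Of the 18 COR and LEA genes measured, 14 rose and 0 fell, against 5.17% risen over all genes. The 14 include COR27 and AT4G33980, named above for their large rises. The list's median log2 change was 1.52, with 1.51 in C28P, 1.56 in C35P and 1.38 in C28PLT. LTI30, a dehydrin that binds membranes, stood at 20.6 to 92.0 CPM at 2 h (median 55.5) and at 162 to 472 CPM at 4 h (median 296). Its groups did not overlap, and it rose 6.32-fold (log2 2.66, SE 0.334, adjusted p = 1.96e-05). COR15A, which protects chloroplast membranes, stood at 438 to 1472 CPM at 2 h (median 746) and at 1485 to 3995 CPM at 4 h (median 2628). Its highest library at 2 h, C28PLT Exp3, was just under its lowest at 4 h, C35P Exp1, and the gene rose 3.26-fold (log2 1.70, SE 0.214, adjusted p = 1.83e-05).

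Another 4 COR genes separated the times without overlap, as did 1.58% of all genes in the rising direction. COR15B rose 3.96-fold (log2 1.98, SE 0.185), RD29A rose 4.35-fold (log2 2.12, SE 0.332), COR413IM1 of the inner chloroplast envelope rose 3.71-fold (log2 1.89, SE 0.284) and COR413-PM1 of the plasma membrane rose 2.85-fold (log2 1.51, SE 0.128). The dehydrin COR47 rose 3.09-fold (log2 1.63, SE 0.287), KIN1 rose 2.88-fold (log2 1.53, SE 0.283) and KIN2 rose 2.74-fold (log2 1.45, SE 0.211), with overlap. COR15A and COR15B, and KIN1 and KIN2, are similar copies between which reads may have been split. Not called were ERD14 (log2 0.34, SE 0.252), COR413IM2 (log2 0.25, SE 0.143), RAB18 (log2 0.01, SE 0.168) and RD29B (log2 -0.70, SE 0.669), the last pair best known as targets of abscisic acid. For RD29A, C28P Exp3 had the smallest difference of the 9 pairs, with 217 CPM at 2 h and 284 CPM at 4 h.

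The regions before 3 of the risen cold genes are shown because they hold the element that CBF factors bind. They are the 250 bases before the annotated start in the RefSeq genome TAIR10.1, printed 5′ to 3′ on the gene's strand: chr2:17712331-17712580 on the minus strand for COR15A, chr5:21240467-21240716 on the plus strand for RD29A and chr1:3019389-3019638 on the plus strand for GOLS3. Capitals mark the DRE/CRT core, CCGAC or its reverse complement GTCGG. It occurs 2 times before COR15A, 3 times before RD29A and 2 times before GOLS3, which encodes a galactinol synthase. Over the whole list of COR and LEA genes, 6 of 18 windows hold it (33.3%), against 13.1% of all windows, so most of the list's windows do not.
COR15A: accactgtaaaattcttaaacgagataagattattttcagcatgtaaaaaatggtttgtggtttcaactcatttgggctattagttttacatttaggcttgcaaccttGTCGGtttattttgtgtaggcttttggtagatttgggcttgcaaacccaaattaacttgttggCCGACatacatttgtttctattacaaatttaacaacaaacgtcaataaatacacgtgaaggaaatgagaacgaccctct
RD29A: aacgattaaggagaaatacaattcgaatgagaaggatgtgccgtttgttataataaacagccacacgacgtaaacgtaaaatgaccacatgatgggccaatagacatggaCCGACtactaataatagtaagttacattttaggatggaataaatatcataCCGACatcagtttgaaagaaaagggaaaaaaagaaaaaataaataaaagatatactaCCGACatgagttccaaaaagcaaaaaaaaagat
GOLS3: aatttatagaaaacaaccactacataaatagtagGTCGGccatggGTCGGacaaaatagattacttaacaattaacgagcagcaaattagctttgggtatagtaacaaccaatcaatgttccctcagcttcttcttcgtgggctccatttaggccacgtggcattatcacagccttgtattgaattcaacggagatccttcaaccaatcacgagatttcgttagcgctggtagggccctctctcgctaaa

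Of 5 pseudo-response regulators, which repress the morning clock genes in turn through the day, 4 rose and 0 fell. Over all genes 5.17% rose. TOC1 stood at 6.59 to 15.9 CPM at 2 h (median 12.1) and at 38.2 to 93.1 CPM at 4 h (median 59.8) without overlap, and rose 5.37-fold (log2 2.42, SE 0.170, adjusted p = 9.63e-09). PRR5 rose (log2 1.13, SE 0.180, adjusted p = 0.000257) from a median of 88.9 to one of 159 CPM. PRR3 rose 9.75-fold (log2 3.29, SE 0.246), from a median of 0.265 to only 2.45 CPM. PRR7 rose 1.85-fold (log2 0.89, SE 0.274, adjusted p = 0.0448), higher in 8 of 9 pairs. Leaving out 1 library removed the call of PRR7 for 14 of the 18 (adjusted p up to 0.0971), the exceptions being C28PLT Exp1 and C28P Exp3 at 2 h and C28P Exp3 and C28PLT Exp3 at 4 h. PRR9, the earliest of the family in the day, was not called (log2 0.09, SE 0.214).

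Of 14 evening clock and photoperiod genes, 5 rose and 3 fell, beside 5.17% and 4.55% over all genes. ELF4, of the evening complex, stood at 4.98 to 16.3 CPM at 2 h (median 10.0) and at 76.7 to 156 CPM at 4 h (median 111) without overlap, and rose 10.6-fold (log2 3.41, SE 0.239, adjusted p = 9.63e-09). Its partners in that complex also rose: LUX rose 2.06-fold (log2 1.04, SE 0.145) and ELF3 rose 2.60-fold (log2 1.38, SE 0.269). FKF1, a blue-light receptor that measures day length, rose 5.15-fold (log2 2.36, SE 0.207, adjusted p = 1.92e-07). GI, its partner, rose 3.66-fold (log2 1.87, SE 0.382, adjusted p = 0.00270) and stood higher at 4 h in 8 of 9 pairs. The exception was C28P Exp3, where GI stood at 62.3 CPM at 2 h and 36.5 CPM at 4 h. With a correction of each library for transcript length and GC content, the log2 change of GI was 1.90 (adjusted p = 2.28e-07). In the uncorrected fit the calls of GI (adjusted p = 0.140) and ELF3 (adjusted p = 0.0707) were each lost when 1 experiment was left out. ELF4, LUX and FKF1 kept theirs whichever experiment was left out.

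The fallen evening-list members were CDF1, CHE and AT1G69570. CDF1, a repressor of flowering that FKF1 and GI help to degrade, fell 2.80-fold (log2 -1.48, SE 0.348, adjusted p = 0.00797). CHE, a repressor of CCA1, fell 1.71-fold (log2 -0.78, SE 0.131, adjusted p = 0.000457) without overlap, and AT1G69570 of the Dof zinc-finger family fell as well (log2 -1.29, SE 0.332, adjusted p = 0.0158). With the replicate block of condition and experiment 5 of the 14 fell, beside 1499 of 19954 genes in that fit. Of 12 morning MYB and LNK genes, 1 rose and 1 fell, beside 5.17% and 4.55% over all genes, and their median log2 change was -0.27. RVE8, an activator of evening genes, fell 1.58-fold (log2 -0.66, SE 0.141, adjusted p = 0.00367), lower at 4 h in 9 of 9 pairs, and AT5G52660 of the homeodomain-like family rose (log2 0.96, SE 0.154, adjusted p = 0.000289). The core pair CCA1 (log2 -0.10, SE 0.216) and LHY (log2 -0.29, SE 0.149) were not called. With the replicate block of condition and experiment 4 of the 12 fell, RVE1 (adjusted p = 0.000659), RVE2 (adjusted p = 0.00699) and LNK3 (adjusted p = 0.00448) beside RVE8. Without the 4 h library of C28P Exp2 or of C28PLT Exp3, 2 of the 12 fell.

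Of 10 RNA-binding and cold shock genes, 3 rose and 0 fell, beside 5.17% risen over all genes. GRP7, a glycine-rich RNA-binding protein with a daily rhythm, stood at 199 to 426 CPM at 2 h (median 267) and at 1617 to 2510 CPM at 4 h (median 1814) without overlap, and rose 6.37-fold (log2 2.67, SE 0.174, adjusted p = 3.83e-09). Its relative GRP8 rose 3.70-fold (log2 1.89, SE 0.218, adjusted p = 6.54e-06), and CP29, a chloroplast RNA-binding protein needed in the cold, rose 2.00-fold (log2 1.00, SE 0.180, adjusted p = 0.000834). The cold shock domain genes CSDP1 (log2 0.52, SE 0.196) and CSP3 (log2 0.28, SE 0.164) were among the 7 not called.

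The regions before GRP7 and TOC1 are shown because they hold the evening element, 3 times and 1 time. They are given as above, from the RefSeq genome TAIR10.1: chr2:9266558-9266807 on the minus strand for GRP7 and chr5:24674713-24674962 on the plus strand for TOC1. Capitals mark AAAATATCT or its reverse complement AGATATTTT. The letters CCGAC are not in these 2 windows on either strand.
GRP7: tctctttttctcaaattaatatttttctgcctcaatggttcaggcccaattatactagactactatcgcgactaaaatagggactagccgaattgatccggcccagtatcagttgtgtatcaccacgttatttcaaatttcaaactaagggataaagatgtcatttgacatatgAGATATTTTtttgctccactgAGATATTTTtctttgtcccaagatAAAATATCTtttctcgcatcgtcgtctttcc
TOC1: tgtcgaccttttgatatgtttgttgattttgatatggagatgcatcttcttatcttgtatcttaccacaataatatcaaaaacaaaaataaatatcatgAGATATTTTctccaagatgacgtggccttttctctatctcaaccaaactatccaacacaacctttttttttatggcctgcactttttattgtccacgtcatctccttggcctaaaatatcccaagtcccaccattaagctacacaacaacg

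Over the 19953 tested genes with a window, AAAATATCT on either strand stood in 2.54% of the 250-base windows. It stood in 11.2% of those of risen genes (116 of 1032), in 15.7% of those risen at least 2-fold (71 of 453) and in 30.5% of those risen at least 4-fold (29 of 95). Among fallen genes the share was 1.32% (12 of 907). CCGAC on either strand stood in 13.1% of all windows, in 19.5% for risen genes and in 8.71% for fallen genes. For genes risen at least 2-fold its share was 24.1%, and at least 4-fold 23.2%. The G-box CACGTG stood in 7.34% of all windows, 8.53% for risen and 8.16% for fallen genes. Its share was 10.4% for genes risen at least 2-fold and 14.7% at least 4-fold (14 of 95). CGCG, a core bound by CAMTA factors, stood in 10.8% of all, 8.04% for risen and 13.1% for fallen genes. For genes risen at least 2-fold CGCG stood in 8.39%, and at least 4-fold in 11.6%. These shares describe matches of short letters and carry no test.

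**Figure D2:**
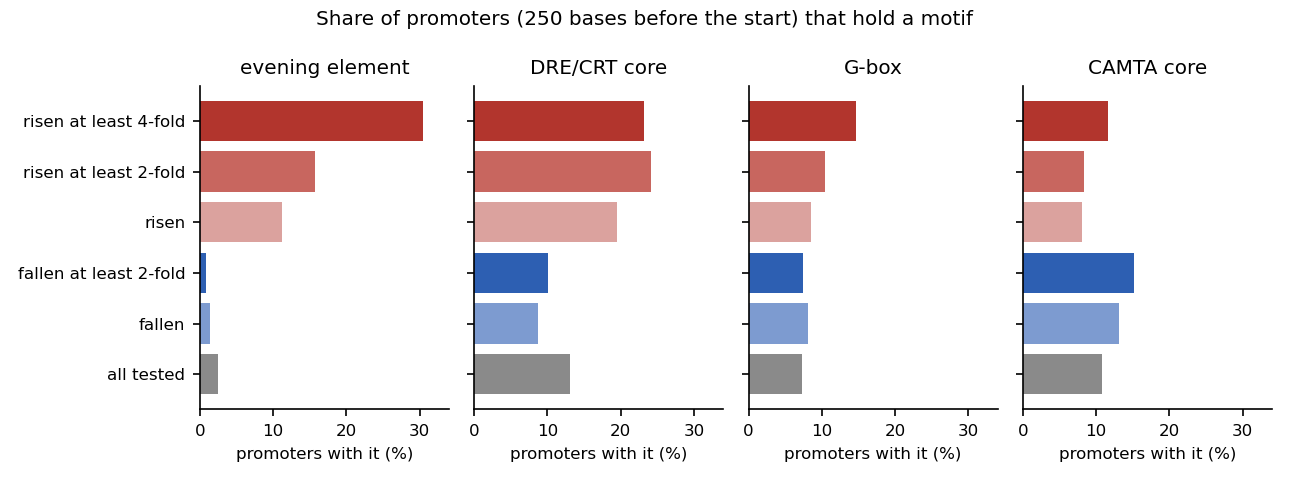
Share of promoter windows (250 bases before the start, in percent) that hold each of 4 motifs on either strand, for all genes tested and for risen and fallen genes. The evening element stands in 30.5% of the windows of genes risen at least 4-fold, against 2.54% of all.

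Of 14 genes of raffinose, sucrose, starch and proline metabolism, 4 rose and 1 fell, beside 5.17% and 4.55% over all genes. GOLS3, which makes galactinol for raffinose, stood at 35.7 to 74.6 CPM at 2 h (median 48.0) and at 296 to 474 CPM at 4 h (median 439) without overlap, and rose 8.51-fold (log2 3.09, SE 0.148, adjusted p = 2.36e-10). SIP1, a raffinose synthase-like gene, rose 2.83-fold (SE of the log2 change 0.206, adjusted p = 5.35e-05). SUS1, a sucrose synthase, rose 4.79-fold (log2 2.26, SE 0.216, adjusted p = 6.26e-07) from a median of 26.8 to one of 127 CPM without overlap. The relatives GOLS1 (log2 0.32, SE 0.398) and GOLS2 (log2 -1.04, SE 0.574) were not called, and with the replicate block of condition and experiment GOLS2 fell (adjusted p = 0.000309). That block called 6 of the 14 risen and 4 fallen. Without the C28PLT library of Exp3 at 2 h, 2 of the 14 fell.

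Starch genes differed in sign. SEX1, which phosphorylates starch so that it can be broken down, rose 3.06-fold (log2 1.62, SE 0.285, adjusted p = 0.000723), higher in 8 of 9 pairs. As for GI, C28P Exp3 was the exception, with 42.7 CPM at 2 h and 30.9 CPM at 4 h, and the log2 change with the length and GC correction was 1.66. BAM1, a beta-amylase, fell 1.62-fold (log2 -0.69, SE 0.155, adjusted p = 0.00537), lower in 9 of 9 pairs. The calls of SEX1 (adjusted p = 0.0744) and BAM1 (adjusted p = 0.0608) were each lost when 1 experiment was left out. BAM3, another beta-amylase, was not called (log2 0.79, SE 0.302, adjusted p = 0.122), nor were the proline synthesis genes P5CS1 (log2 -0.57, SE 0.299) and P5CS2 (log2 0.46, SE 0.206). With the block, BAM3 (adjusted p = 0.0117) and P5CS2 (adjusted p = 0.0305) rose and P5CS1 (adjusted p = 0.0259) fell.

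Of 17 membrane and lipid genes 2 rose and 0 fell, beside 5.17% risen over all genes, and 4 rose with the replicate block of condition and experiment. The 2 were DGAT1, already named for its large rise, and the desaturase ADS2. ADS2 rose 2.51-fold (log2 1.33, SE 0.153, adjusted p = 6.54e-06) from a median of 424 to one of 1256 CPM without overlap.

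Of 18 nucleolar ribosome assembly factors, 8 rose and 0 fell, beside 5.17% risen over all genes, with a median log2 change of 0.41. NUC1, a nucleolin, rose 1.81-fold (log2 0.85, SE 0.187, adjusted p = 0.00464) from a median of 206 to one of 369.8 CPM, and FIB2, a fibrillarin of rRNA methylation, rose 1.76-fold (log2 0.82, SE 0.206, adjusted p = 0.0138). Both were higher at 4 h in 9 of 9 pairs, with overlap between the times. REIL2, a maturation factor of the large ribosomal subunit known from growth in the cold, rose by less (log2 0.51, SE 0.116, adjusted p = 0.00564). The count rested on few libraries: it was 4 without the 4 h library of C28P Exp1, C35P Exp1 or C28PLT Exp1, and 5 without that of C35P Exp2 or C28PLT Exp2. It was also 5 without the 2 h library of C28P Exp2, C35P Exp2, C28PLT Exp1, C28PLT Exp2 or C28PLT Exp3. It was 0 without Exp1 or without Exp2, and 10 without Exp3. In their promoter windows TGGGCC stood in 8 of 18 (16.7% of all windows), and the telo-box AAACCCTA in 6 of 18 (3.73% of all), on either strand.

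**Figure D3:**
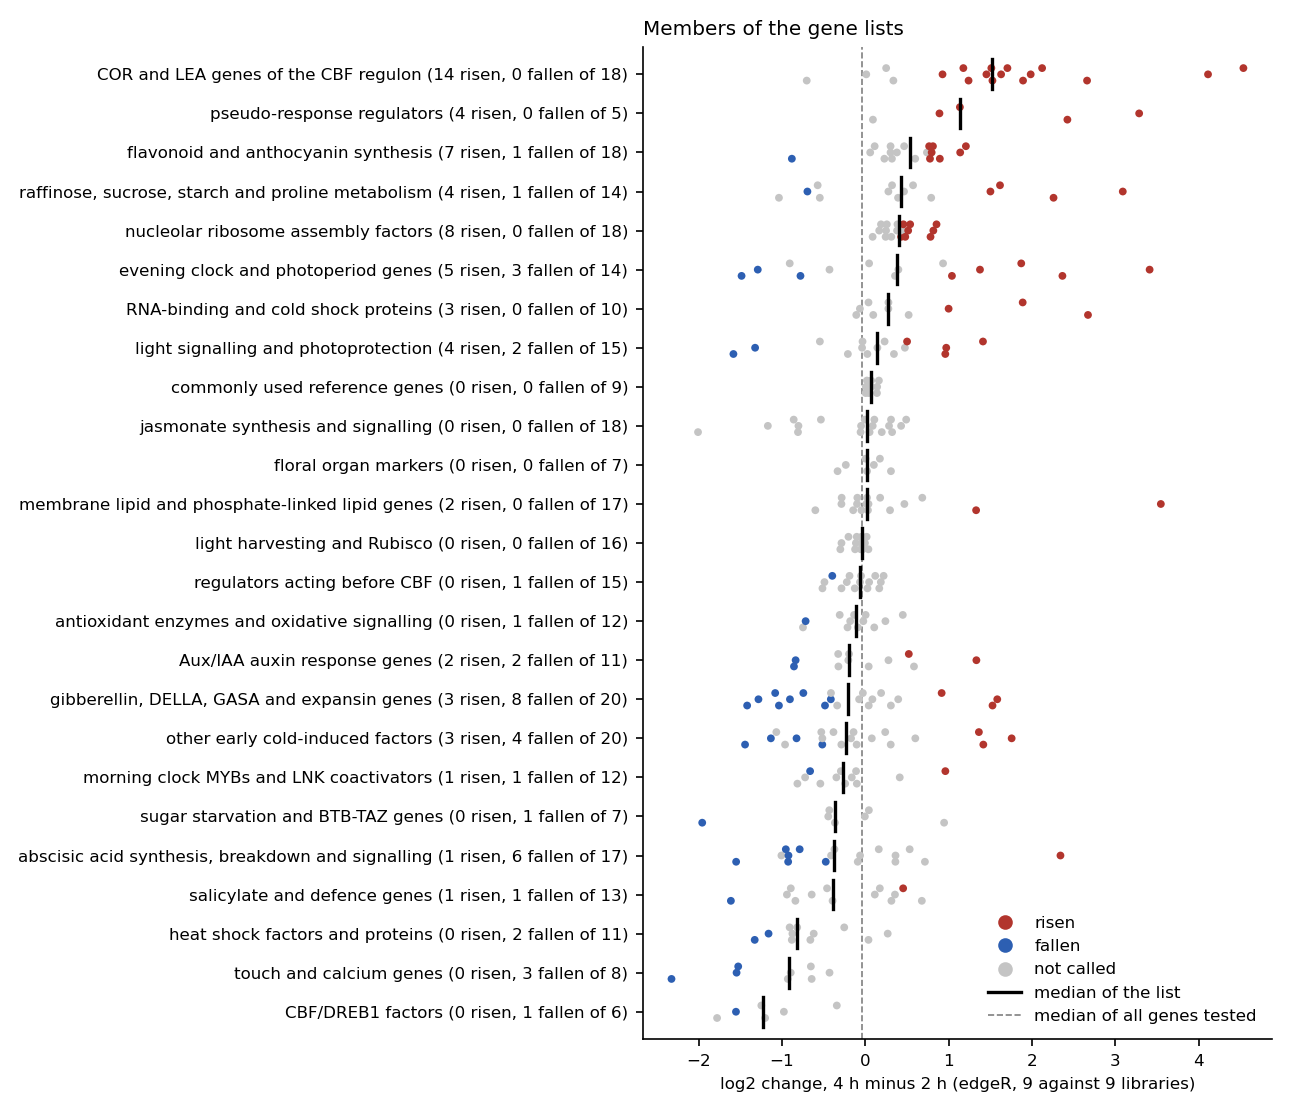
Log2 change of 4 h minus 2 h for each measured member of the gene lists, coloured by whether it rose, fell or was not called. The bar is the list's median and the dashed line the median of all genes tested (-0.03). Of the COR and LEA genes 14 of 18 rose, and of the CBF/DREB1 genes 1 of 6 fell.

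Of 15 genes of light signalling and photoprotection, 4 rose and 2 fell, beside 5.17% and 4.55% over all genes. ELIP1 and ELIP2, which shield the photosystems in excess light, both rose: ELIP1 rose 1.96-fold (log2 0.97, SE 0.167, adjusted p = 0.000560) and ELIP2 rose 2.66-fold (log2 1.41, SE 0.252, adjusted p = 0.000779). BBX22, a B-box promoter of photomorphogenesis, rose 1.95-fold (log2 0.96, SE 0.105, adjusted p = 3.75e-06) without overlap. HY5, the central light factor, rose by less (log2 0.50, SE 0.154, adjusted p = 0.0447). HY5 lost its call for 13 of the 18 libraries left out in turn (adjusted p up to 0.0887), the exceptions being C28PLT Exp2 and C35P Exp2 at 2 h, and C28PLT Exp1, C35P Exp1 and C35P Exp3 at 4 h. The small B-box genes BBX30 and BBX31 were lower in 9 of 9 pairs: BBX30 fell 2.99-fold (log2 -1.58, SE 0.335, adjusted p = 0.00367) and BBX31 fell 2.50-fold (log2 -1.32, SE 0.235, adjusted p = 0.000769).

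Of 18 flavonoid and anthocyanin genes, 7 rose and 1 fell, beside 5.17% and 4.55% over all genes. Their median log2 change was 0.53. FLS1, the flavonol synthase, rose 2.31-fold (log2 1.21, SE 0.186, adjusted p = 0.000192), F3H, an earlier step, rose 1.86-fold (log2 0.89, SE 0.155, adjusted p = 0.000615), and MYB12, a flavonol regulator, rose (log2 1.14, SE 0.197, adjusted p = 0.000580). MYB111, of the same group as MYB12, rose as well (log2 0.81, SE 0.238, adjusted p = 0.0342) and lost its call for 9 of the 18 libraries left out in turn (adjusted p up to 0.0861), the exceptions being C28P Exp1, C28P Exp3, C28PLT Exp2 and C35P Exp1 at 2 h, and C28P Exp2, C28PLT Exp1, C28PLT Exp3, C35P Exp2 and C35P Exp3 at 4 h. The late anthocyanin genes DFR (log2 0.30, SE 0.260), LDOX (log2 0.30, SE 0.281) and UF3GT (log2 0.11, SE 0.257) were not called. PAP1, a MYB factor of anthocyanin synthesis, fell 1.84-fold (log2 -0.88, SE 0.212, adjusted p = 0.00962).

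Among the largest falls, DREB26, of the same DNA-binding family as the CBF factors, stood at 25.4 to 77.7 CPM at 2 h (median 55.1) and at 3.04 to 17.1 CPM at 4 h (median 4.36). It fell 8.28-fold (log2 -3.05, SE 0.306, adjusted p = 1.22e-06) without overlap, and its median at 0 h was 55.6 CPM. PHI-1 and EXO belong to the phosphate-responsive 1 family, and EXO is known from growth under brassinosteroid. PHI-1 fell 6.38-fold (log2 -2.67, SE 0.374, adjusted p = 6.74e-05) from a median of 419 to one of 55.3 CPM, and its highest library at 4 h was C28PLT Exp3 with 236 CPM. EXO fell 5.09-fold (log2 -2.35, SE 0.251, adjusted p = 2.80e-06). Neither overlapped between the times, nor did the zinc-finger gene ZF1, which fell 6.10-fold (log2 -2.61, SE 0.230), or the O-fucosyltransferase gene AT2G44500, which fell 4.63-fold (log2 -2.21, SE 0.302).

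The other large falls overlapped between the times. AT1G33760 and AT1G77640 belong to the integrase-type DNA-binding family that holds DREB26. AT1G33760 fell 6.87-fold (log2 -2.78, SE 0.610, adjusted p = 0.00482), and its 4 h library of C28PLT Exp3 stood at 40.0 CPM against at most 3.49 CPM in the other 8. AT1G77640 fell 5.49-fold (log2 -2.46, SE 0.431), the Dof-type gene AT1G26790 fell 4.96-fold (log2 -2.31, SE 0.544) and the uncharacterized AT1G72240 fell 4.90-fold (log2 -2.29, SE 0.388). AT2G27080, of the hydroxyproline-rich LEA family, fell 4.59-fold (log2 -2.20, SE 0.538) and the glycosyltransferase gene AT2G41640 fell 4.54-fold (log2 -2.18, SE 0.438).

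Of 8 touch and calcium genes, 3 fell and 0 rose, beside 4.55% fallen over all genes, with a median log2 change of -0.91. XTH22, a cell-wall enzyme gene known for its response to touch, stood at 205 to 431 CPM at 2 h (median 316) and at 20.9 to 169.5 CPM at 4 h (median 53.6) without overlap, and fell 5.01-fold (log2 -2.33, SE 0.295, adjusted p = 2.17e-05). TCH2, a calmodulin-like gene, fell 2.88-fold (log2 -1.52, SE 0.284, adjusted p = 0.00121) and XTH23, a relative of XTH22, fell 2.92-fold (log2 -1.54, SE 0.256, adjusted p = 0.000404). The count was 3 without any 1 library or any 1 experiment, and with the replicate block of condition and experiment 7 of the 8 fell. In that block fit 1499 of 19954 genes fell.

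Of 17 abscisic acid genes, 6 fell and 1 rose, beside 4.55% and 5.17% over all genes. AHG3, a PP2C phosphatase that holds abscisic acid signalling down, fell 2.93-fold (log2 -1.55, SE 0.192, adjusted p = 1.65e-05) from a median of 174 to one of 54.8 CPM, and HAB1, another, fell 1.90-fold (log2 -0.93, SE 0.210, adjusted p = 0.00626). CYP707A3, which breaks abscisic acid down, fell 1.89-fold (log2 -0.92, SE 0.233, adjusted p = 0.0138). It was not called in the fit of all 54 libraries (adjusted p = 0.135), and leaving out an experiment gave an adjusted p up to 0.0961. ABF1, a bZIP factor of abscisic acid responses, rose 5.07-fold (log2 2.34, SE 0.151, adjusted p = 3.56e-09) without overlap, and its relative ABF3 fell (log2 -0.95, SE 0.255, adjusted p = 0.0200), a call lost without C35P Exp3 at 2 h (adjusted p = 0.0556). The fallen count was 4 without the 4 h library of C28PLT Exp1 or C28PLT Exp2 or the 2 h library of C35P Exp3. It was 1 without Exp1 or without Exp2, and 9 with the replicate block of condition and experiment, where 1499 of 19954 genes fell.

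Of 20 gibberellin, DELLA, GASA and expansin genes, 8 fell and 3 rose, beside 4.55% and 5.17% over all genes. The DELLA repressors of growth differed in sign. RGL1 fell 2.12-fold (log2 -1.08, SE 0.180, adjusted p = 0.000425) without overlap, RGL2 (log2 -1.04, SE 0.174, adjusted p = 0.000456) and GAI (log2 -0.48, SE 0.137, adjusted p = 0.0292) fell, and RGL3 rose 2.88-fold (log2 1.53, SE 0.407, adjusted p = 0.0198). GAI lost its call for 10 of the 18 libraries left out in turn (adjusted p up to 0.0801), the exceptions being C28P Exp2, C28PLT Exp3, C35P Exp1 and C35P Exp3 at 2 h, and C28PLT Exp1, C28PLT Exp2, C28PLT Exp3 and C35P Exp1 at 4 h. GA3OX1, which makes active gibberellin, fell 2.43-fold (log2 -1.28, SE 0.249, adjusted p = 0.00172). Of the enzymes that inactivate gibberellin, GA2OX1 (log2 0.92, SE 0.234, adjusted p = 0.0148) and GA2OX8 (log2 1.58, SE 0.308, adjusted p = 0.00172) rose and GA2OX2 (log2 -0.90, SE 0.198, adjusted p = 0.00464) fell. EXPA8, an expansin that loosens walls, fell 2.67-fold (log2 -1.42, SE 0.354, adjusted p = 0.0126).

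Of 18 jasmonate genes 0 were called by edgeR, beside 9.72% over all genes, and 2 fell by DESeq2. Their median log2 change was 0.02. JAZ7, a repressor of the pathway, was lower at 4 h in 9 of 9 pairs (log2 -2.01, SE 0.649, adjusted p = 0.0580), and with the replicate block of condition and experiment it fell (adjusted p = 2.06e-05), as did 5 others. With that block 1 of the 18 rose, and over all genes 1450 rose and 1499 fell of 19954. Without the C28P library of Exp2 at 4 h, 4 of the 18 fell. Of 11 heat genes measured, 2 fell and 0 rose, beside 4.55% fallen over all genes, the repressor HSFB2A (log2 -1.16, SE 0.303, adjusted p = 0.0172) and the coactivator MBF1C (log2 -1.33, SE 0.301, adjusted p = 0.00608), and the list's median was -0.82. With the replicate block 5 of the 11 fell, and without the C35P library of Exp1 at 2 h 4 did. Leaving out 1 experiment gave 0 to 2 fallen heat genes.

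Genes that mark the material were not called. Of 16 genes of light harvesting and Rubisco, abundant messages of the green leaf, 0 were called and the median log2 change was -0.04; reads of close copies of LHCB1 and LHCB2 may have been split. Of 9 commonly used reference genes 0 were called, ACT2 (log2 0.02) and UBQ10 (log2 0.07) among them. The 7 floral markers summed to 1.02 to 7.48 CPM at 2 h and to 1.11 to 7.06 CPM at 4 h, with 0 called. Over all genes 9.72% were called, so a count of 0 in lists this short says little. Of 4 root hair markers 1 passed the filter, and their sum was at most 1.53 CPM in any of the 18 libraries. In whole rosettes, fewer cells of a type and less RNA per cell cannot be told apart.

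The design also asks whether the step depended on age or on earlier cold. Within C28P alone 316 genes changed (1.58%), in C35P 210 (1.05%) and in C28PLT 247 (1.24%), with 3 libraries against 3. A gene called in 1 condition and not in another is not thereby shown to differ. The test of the difference itself called 0 of 19954 genes (0%) by edgeR, with 151 genes at an unadjusted p under 0.05, and 0 by DESeq2. For single pairs of conditions edgeR called 0 genes, and DESeq2 called 0, 1 and 1. The standard error of a difference between the steps of 2 conditions was 0.485 to 0.486 (log2) at the median gene, so small differences were not detectable. For COR15A the C28PLT step minus the C35P step was -0.25 (SE 0.530), for GOLS3 -0.10 (SE 0.355), for CBF2 0.13 (SE 1.08) and for XTH22 0.77 (SE 0.696).

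The genes with the smallest p for a difference between conditions were CRLK2, a calcium-linked kinase gene, AT5G65470, AT1G35350, AT1G64330 and KLCR2, none of them called. CRLK2 had log2 changes of -1.07 (SE 0.302) in C28P, 0.19 (SE 0.299) in C35P and 0.34 (SE 0.297) in C28PLT. In all 5 the C28P step was the lowest of the 3 conditions. The lowest of the 9 pairs was C28P Exp3, whose libraries, like those of other pairs, differed in their relation to transcript length. In AT1G64330 that pair stood at -1.79, against 0.06 and -0.53 in the other C28P pairs.

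**Figure D4:**
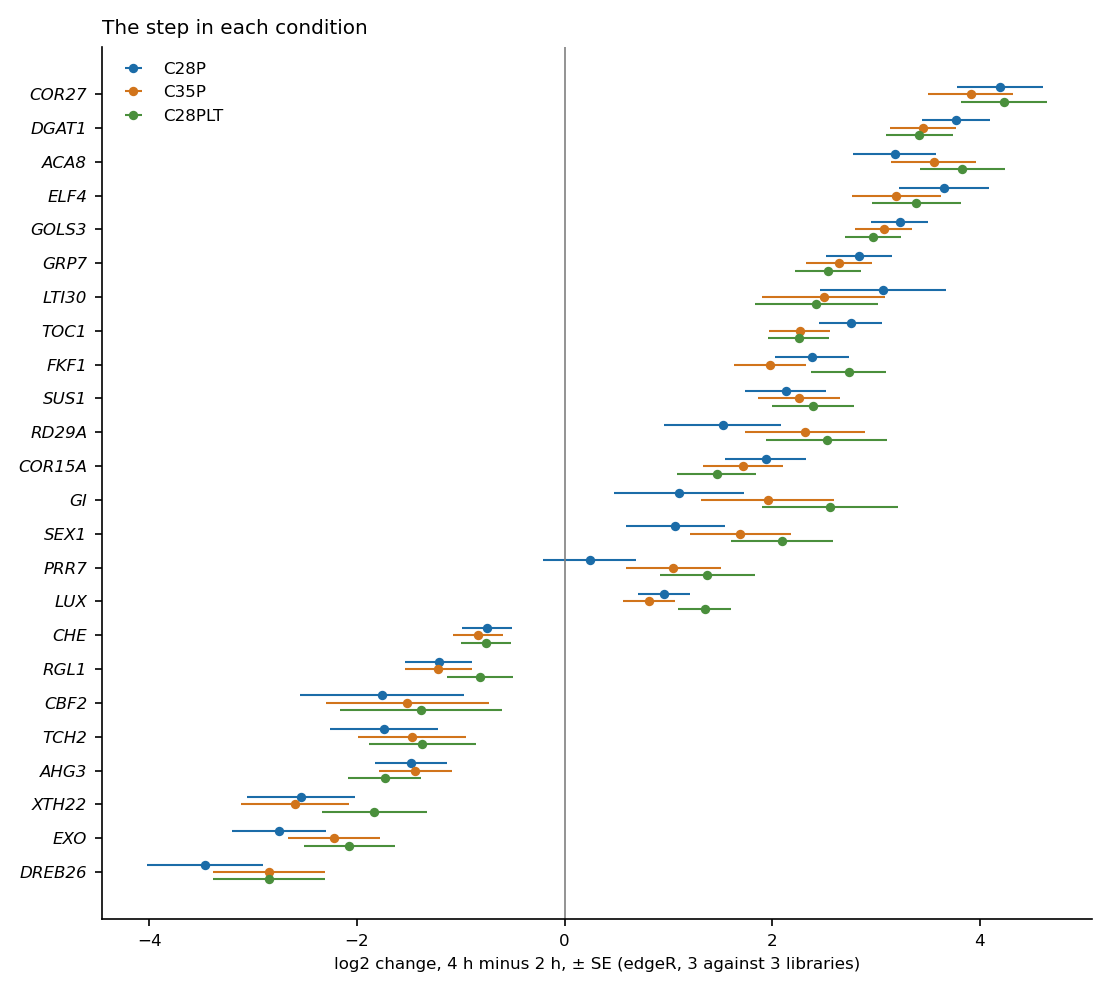
Log2 change of 4 h minus 2 h, with its standard error, in C28P, C35P and C28PLT (3 against 3 libraries each) for 24 named genes. No difference between the conditions passed the test, and GI and SEX1 have their lowest value in C28P, where Exp3 was the exception.

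The step was last set beside the next one, from 4 h to 6 h, by subtracting the former from the latter, so that both share the 4 h libraries. Of 20203 genes, 81 differed (0.401%), with 77 lower and 4 higher in the next step. Because this step is subtracted, a large rise in it lowers the difference and a large fall raises it. The direction of the difference in such genes is therefore no separate result. The 5 with the smallest p had all risen from 2 h to 4 h and had a smaller log2 step afterwards. AT4G33980 had means of 4.16, 97.2 and 173 CPM at 2, 4 and 6 h (difference of the steps, log2 -3.74, SE 0.348, adjusted p = 4.18e-06). COR27 had 11.7, 204 and 430.2 CPM (log2 -3.08, SE 0.314, adjusted p = 1.20e-05), and DGAT1 35.5 and 89.0 CPM at 4 and 6 h (log2 -2.24, SE 0.250). AT1G17665 (log2 -2.43, SE 0.259) and AT1G56300 (log2 -1.90, SE 0.204) were the others. Among list members, FKF1 (-2.20), ELF4 (-2.09), PRR3 (-2.09), GOLS3 (-1.94), ABF1 (-1.92), GRP7 (-1.58), TOC1 (-1.43), COR15B (-1.26) and BBX22 (-0.76) were called lower too.

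The 4 genes with a higher next step were lower at 4 h than at 2 h. AHG3 had means of 172, 58.6 and 65.3 CPM at 2, 4 and 6 h (log2 1.69, SE 0.352, adjusted p = 0.0252). ZF1 (log2 2.44, SE 0.430), AT2G28200 (log2 1.21, SE 0.250) and AT5G23130 (log2 1.67, SE 0.331) were the others, named here after their values were seen because the count is small. Over the whole course the median of AHG3 was lowest at 4 h, and at 24 h it stood at 414 CPM. COR15A had a median of 11930 CPM at 12 h and 15270 CPM at 24 h. The median of CBF2 was 126 CPM at 6 h and 24.3 CPM at 12 h.

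**Figure D5:**
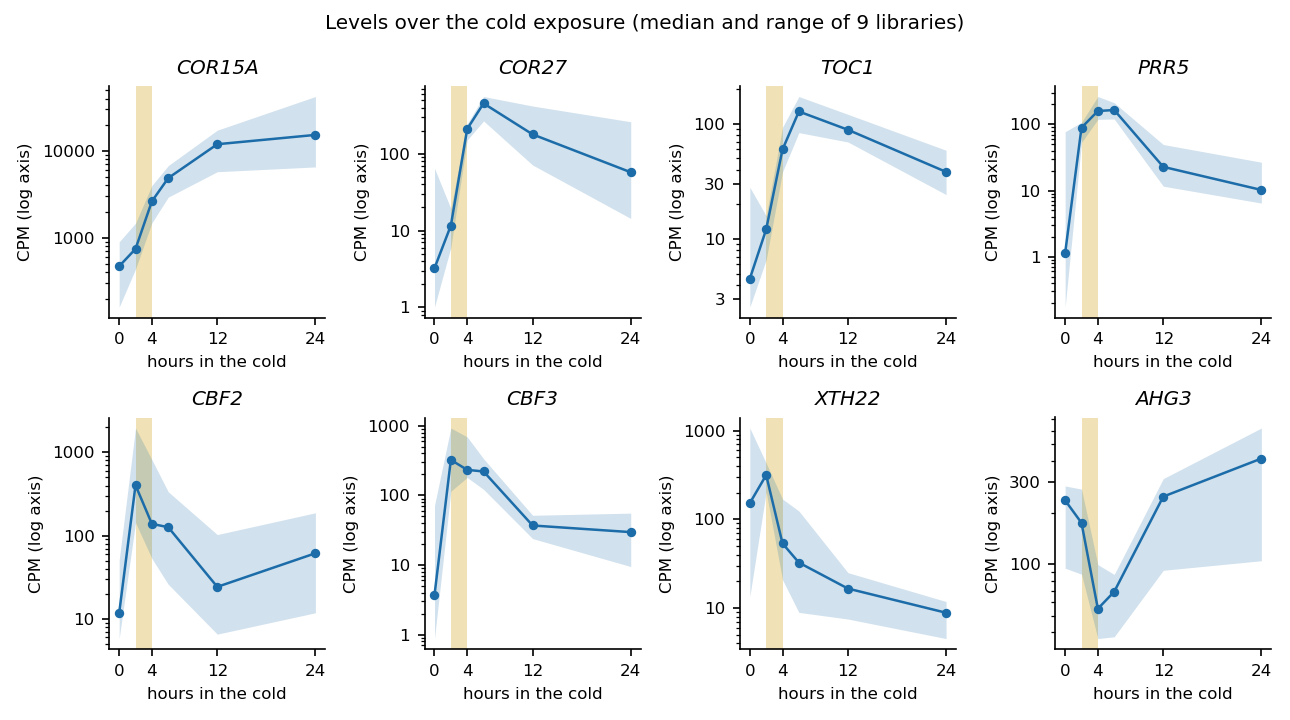
Median (line) and range (band) of the 9 libraries at each of 6 times in the cold, in CPM on a log axis, with the step from 2 h to 4 h shaded. The median of COR15A is higher at each later time, those of COR27 and TOC1 are highest at 6 h, that of CBF2 at 2 h, and that of AHG3 is lowest at 4 h.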

How the data were processed

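Whole-rosette RNA was sequenced as bulk libraries from a strand-marking kit, per the labels' protocols. The authors deposited raw read counts per gene for 36632 genes in 54 columns. Per the submitters' processing notes, Trimmomatic, STAR 2.7.9a, DESeq2 and the build TAIR10 were used. The strand setting, annotation and treatment of reads with several matches are not given in the sources used. From these counts, edgeR 4.0.16 (R 4.3.3) was run with TMM scaling, a minimum count of 10 in its expression filter and robust quasi-likelihood fits, on 18 libraries with condition as covariate. A fit of 6 group means gave the steps within conditions and the difference between them, and a fit of 27 libraries gave the next step minus this one. P-values were adjusted by Benjamini-Hochberg over all genes tested, with a threshold of 0.05. Alternatives were RLE scaling, other filters, all 54 libraries, replicate blocks, a length and GC offset, DESeq2 1.42.0, and leaving out each library or experiment. The fits were tested on simulated data. Those counts were drawn independently, without effects of condition, experiment or transcript length, so that test does not bear on these features of the libraries.

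The labels give the replicates as independent experiments and the same number marks the same experiment, so the number pairs the samples. Deviations of samples with the same number in 2 h and 4 h groups correlated between -0.363 (C28P Exp3) and 0.65, and the other 8 pairs were all above 0. The total counts of the 18 libraries all differed, so none of them was an exact copy of another. Named genes were members of 26 gene lists, the 12 called genes per direction with the largest log2 change among those with a mean of at least 5 CPM at either time and the same sign in all 9 pairs, and the 5 with the smallest p in each of the other tests. The comparison, the lists and the members described were chosen with earlier results of these data known. Promoter windows were read from the RefSeq genome TAIR10.1 with its own annotation. Counts limit precision by counting error. The main p-values rest on the spread between libraries left after condition and time, without a term for the experiment. The 9 libraries of a time come from 3 experiments and were treated as independent in that fit.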

Additional observations from a re-analysis of the deposited data

Results flagged for a closer look

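Of 162 per-pair changes tested for 1 pair far from the other 8 (a pair being the 2 h and 4 h libraries of 1 condition and experiment), 24 were flagged. Chance flags about 1 in 20 groups. The values are log2 changes of 4 h minus 2 h, and no cause was tested. The C28P pair of Exp3, whose libraries, like those of other pairs, differed in their relation to transcript length, was apart in most. It stood at 2.21 for ACA8, 1.102 for CBF3, 2.37 for COR15A, -1.01 for PRR7, -0.77 for GI, -0.47 for SEX1, 1.55 for ABF1, 2.68 for ZAT6, -0.91 for BAM3 and 0.15 for ERF6. In GI the other pairs lay between 1.70 and 3.22, and in COR15A between 1.44 and 1.90. The same pair was apart in the medians of 4 gene lists, at -0.73 for sugar genes, -0.12 for heat genes, 0.45 for gibberellin and growth genes and 0.84 for RNA-binding genes.

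The C28PLT pair of Exp3, with the highest CBF levels, had the smallest falls in 6 genes. It stood at -0.80 for AT1G33760, -1.02 for ZF1, -0.90 for XTH22, -0.79 for AT1G26790, -0.38 for AT2G27080 and -0.18 for JAZ7. In XTH22 the other pairs lay between -3.33 and -2.18. The C28P pair of Exp2, whose 2 h library had the fewest genes detected, had the largest rise of TOC1 (3.39) and of PRR3 (4.65), and the highest value of LDOX (1.66). The C28PLT pair of Exp2 had the smallest rise of GOLS3 (2.58), against 3.01 to 3.40 in the others.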

How the results depend on the processing

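All genes named in the text but AT2G28200 and AT5G23130, 137 in number, were refitted under 31 alternatives. Of these, 104 were called, and of their 3224 values 0 reversed, 3018 kept direction and call and 206 kept direction without the call. These 104 had already passed the main test, and some were picked for large changes with the same sign in all pairs. Every alternative also reused the same counts, in whole or in part. A count of 0 reversed values was therefore nearly given beforehand and is no separate evidence for the directions. Of the genes not called, 7 changed sign in some setting. RAB18 was at -0.0080 with the replicate block of condition and experiment, -0.021 with the offset for length and GC, without or with the experiment block, and -0.040 with the offset and the block of condition and experiment, and UBQ10 was at -0.0081 and -0.0099 with the offset without and with the experiment block. Leaving out 1 library or experiment gave -0.099 to 0.097 for RAB18, -0.34 to 0.12 for CCA1, -0.16 to 0.29 for PRR9, -0.084 to 0.58 for GOLS1, -0.027 to 0.083 for ACT2, -0.029 to 0.24 for UBQ10 and -0.14 to 0.31 for AT1G64330. Counts of genes depended on the settings, and the cause was not tested. Pairing by the replicate block of condition and experiment gave 1499 fallen genes, against 907. It called 875 genes in C28P, 641 in C35P and 682 in C28PLT, against 316, 210 and 247, and 225 for the next step, against 81. The length and GC offset gave 577, 379, 425 and 124 in that order. The offset with the experiment as a replicate block gave 754, 543, 581 and 175, with 1541 fallen. The offset with the block of condition and experiment, added after seeing the data, gave 1873, 1359, 1406 and 433, with 2000 risen and 2136 fallen. DESeq2 gave 682, 479 and 529 genes in the 3 conditions. A fit of all 54 libraries gave 105 in C35P and 5 for the next step. The difference between conditions stayed at 0 genes in every setting run.

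Leaving out 1 library gave 899 to 1120 risen and 672 to 1084 fallen genes, 183 to 382 in C28P, 87 to 284 in C35P, 115 to 403 in C28PLT and 56 to 89 for the next step. Leaving out 1 experiment gave 589 to 1070 risen and 256 to 1152 fallen, 30 to 208, 31 to 100 and 33 to 138 in the conditions, and 12 to 39 for the next step. Without C28P Exp2 at 2 h, 984 rose and 792 fell. Of the 104 called genes, 90 kept the call whichever 1 library was left out and 59 whichever 1 experiment was. With 3 libraries a group, small changes within 1 condition were not detectable.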

Other observations

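Of 13 salicylate genes 1 rose and 1 fell, beside 5.17% and 4.55% over all genes, with a median log2 change of -0.39. NPR1, the salicylate receptor, rose (log2 0.45, SE 0.126, adjusted p = 0.0256), and WRKY46, a defence-linked factor, fell (log2 -1.61, SE 0.427, adjusted p = 0.0189). With the replicate block of condition and experiment 2 of the 13 rose and 6 fell. NPR1 lost its call without C28P Exp1 or C28PLT Exp3 at 2 h or C35P Exp2 at 4 h (adjusted p up to 0.0528), and also with the length and GC offset. WRKY46 lost its call without C28P Exp2 or C28PLT Exp3 at 2 h (adjusted p up to 0.0552). Other members passed in single cases: 2 rose without C35P Exp2 at 2 h, 2 fell without C28P Exp1 or C28P Exp3 at 2 h, and 3 fell without C35P Exp1 at 2 h or C35P Exp2 at 4 h.

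Of 11 Aux/IAA genes, repressors of auxin responses, 2 rose and 2 fell, beside 5.17% and 4.55% over all genes. IAA29 (log2 1.33, SE 0.345, adjusted p = 0.0163) and IAA1 (log2 0.52, SE 0.162, adjusted p = 0.0463) rose, and IAA6 (log2 -0.84, SE 0.213, adjusted p = 0.0145) and IAA14 (log2 -0.86, SE 0.144, adjusted p = 0.000492) fell. Of these, only IAA14 kept its call in the fit of all 54 libraries (adjusted p = 5.74e-05). Leaving out an experiment gave IAA6 an adjusted p up to 0.378. IAA1 lost its call for 12 of the 18 libraries left out in turn (adjusted p up to 0.0977), the exceptions being C28P Exp1, C28PLT Exp3 and C35P Exp1 at 2 h, and C28P Exp2, C28PLT Exp3 and C35P Exp2 at 4 h, and 0 to 1 of the 11 rose without an experiment.

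Of 12 redox genes 0 rose and 1 fell, beside 5.17% and 4.55% over all genes. The fallen one was the oxidase gene RBOHD (log2 -0.72, SE 0.196, adjusted p = 0.0235). That call was lost without C35P Exp2 or C35P Exp3 at 2 h or C28P Exp1 or C35P Exp1 at 4 h (adjusted p up to 0.0563). Without C28P Exp3 at 2 h, 1 redox gene rose. Of 7 starvation genes 0 rose and 1 fell, beside 5.17% and 4.55% over all genes. The fallen one was BT5 (log2 -1.96, SE 0.430, adjusted p = 0.00482), and with the replicate block 2 fell. Without C28P Exp2 at 2 h, 1 starvation gene rose.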
